A study of Mus musculus with 2 samples.

Results

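A set of 36 genes of glycolysis and of the transcriptional response to low oxygen was followed through the cells of the mouse genital tubercle, the bud from which penis or clitoris develops. The members were taken by their gene symbols from a fixed list, 36 of the 31053 genes counted, and all 36 symbols were found. They were 18 glycolytic enzymes (Hk1, Hk2, Gpi1, Pfkl, Pfkm, Pfkp, Aldoa, Aldoc, Tpi1, Gapdh, Pgk1, Pgam1, Eno1, Eno2, Eno3, Pkm, Ldha and Ldhb), 4 transporters of glucose or lactate (Slc2a1, Slc2a3, Slc16a1 and Slc16a3), 12 genes of the hypoxia response (Pdk1, Bnip3, Bnip3l, Ndrg1, Egln1, Egln3, Ankrd37, Car9, P4ha1, P4ha2, Ddit4 and Mxi1) and 2 alpha subunits of hypoxia-inducible factor (HIF), Hif1a and Epas1. The data were droplet single-cell RNA counts of wild-type C57BL/6 embryos at embryonic day 14.5 (Theiler stage 22). After genotyping for sex, genital tubercles of 3 male embryos were pooled into 1 library and those of 3 female embryos into the other, all chosen from 2 litters. Both groups had the same handling, which included 2 hours in medium on ice and a digestion with collagenase XI at 37 °C for 30 minutes, and there was no group of known oxygen supply. Neither sex had a replicate library, so no test was made: every value is given as male then female, intervals are exact at 95% and express the error of counting alone, and spread between embryos cannot be told from the pools.

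Glycolysis splits glucose into pyruvate in the cytosol, and lactate dehydrogenase turns pyruvate into lactate, which regenerates the cofactor that glycolysis needs when respiration is slow. HIF is a transcription factor with an alpha subunit that prolyl hydroxylases, among them the products of Egln1 and Egln3, mark for destruction while oxygen is present. In low oxygen the alpha subunit persists, and HIF then raises the transcription of glucose transporters, glycolytic enzymes and genes that lower mitochondrial use of pyruvate. Many embryonic cells also run glycolysis at a high rate while oxygen is plentiful, so the transcripts of its enzymes are not by themselves a sign of low oxygen.

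HIF binds a short core, written here as ACGTG or GCGTG, and promoters of hypoxia response members are shown for the letters through which HIF could act on them. Promoter sequence came from RefSeq for build GRCm38.p6, the 250 bases before an annotated start, and 32 of the 36 members had an entry. Slc2a3, Bnip3l, Ndrg1 and Epas1 had none. At least 1 core on either strand lay before a start of 29 of the 32 members (90.6%), compared with 11226 of 27025 genes in the same table (41.5%). All 10 hypoxia response members with an entry had a core, 9 of them ACGTG, and so had 15 of the 18 glycolytic enzymes. The member promoters were also richer in GC, with a median of 62.2% against 52.4%, and held a median of 14 CG dinucleotides against 6. The part of this in the counts of cores was not tested. Per start, 37 of 46 member promoters (80.4%) and 38.6% of all 32851 held a core. The 4 promoters below belong to the hypoxia response members with an entry whose level differed most between clusters of mesenchyme, and capitals mark each core or its reverse complement (CACGT or CACGC).
Bnip3: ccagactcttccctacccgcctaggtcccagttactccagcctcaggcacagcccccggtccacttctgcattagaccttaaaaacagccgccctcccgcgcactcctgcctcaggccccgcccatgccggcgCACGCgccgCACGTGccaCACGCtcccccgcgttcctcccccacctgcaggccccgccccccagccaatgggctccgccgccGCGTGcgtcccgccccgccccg
P4ha2: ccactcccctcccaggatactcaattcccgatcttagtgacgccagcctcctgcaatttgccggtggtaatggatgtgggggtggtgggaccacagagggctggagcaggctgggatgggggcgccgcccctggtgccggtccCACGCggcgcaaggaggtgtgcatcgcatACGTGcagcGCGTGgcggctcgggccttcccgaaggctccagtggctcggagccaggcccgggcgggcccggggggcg
Ddit4: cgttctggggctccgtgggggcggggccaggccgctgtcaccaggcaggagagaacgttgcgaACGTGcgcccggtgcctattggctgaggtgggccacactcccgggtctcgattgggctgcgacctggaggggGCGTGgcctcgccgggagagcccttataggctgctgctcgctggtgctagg
Pdk1: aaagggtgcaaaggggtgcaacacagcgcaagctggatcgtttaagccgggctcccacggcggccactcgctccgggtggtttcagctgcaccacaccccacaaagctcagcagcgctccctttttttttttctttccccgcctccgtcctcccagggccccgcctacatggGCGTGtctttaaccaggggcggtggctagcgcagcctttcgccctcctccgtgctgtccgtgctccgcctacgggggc
The Bnip3 stretch, chr7:138909520-138909756 on the minus strand, held 5 cores, 2 ACGTG and 3 GCGTG, where the palindrome CACGTG counts on both strands. P4ha2, chr11:54100674-54100923 on the plus strand, held 1 ACGTG and 2 GCGTG cores. Ddit4, chr10:59951835-59952020 on the minus strand, held 1 of each, and Pdk1, chr2:71872974-71873223 on the plus strand, held 1 GCGTG. Where another transcript's exon overlapped the window it was left out, 13 bases for Bnip3 and 64 for Ddit4. Mxi1, the next gene in that order, had no core before its first start and 1 ACGTG before each of its other annotated starts. A match is a description of letters, and no binding was measured.

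Unique molecular identifiers (UMIs) numbered 130105692 (male library) and 144515562 (female library). A barcode counted as a cell from 2000 UMIs and 500 genes on, with mitochondrial UMIs of 10% or less. Without the likely doublets these were 14872 male and 15910 female cells, with a median of 4892.5 and 4887 UMIs. The libraries shared 65 cell barcodes. Cells fell into 28 clusters, made without any of the 36 genes. Of these, 20 were mesenchyme-like and held 14181 and 15382 cells, 95.4% and 96.7% of all. The other classes were small: 142 and 88 epithelium-like, 134 and 79 endothelium-like, 124 and 215 erythroid-like, 44 and 33 immune-like, 31 and 50 glia-like and 19 and 54 skeletal muscle-like cells. A smooth muscle-like cluster of 177 cells was found in the male library alone, so it cannot be told apart from a property of that library. Levels are UMIs of a gene per 1000000 UMIs (CPM) taken from the summed counts of each class and library. Counts from the 3' end are not divided by gene length here, so levels are compared between cells and not between genes, and within isozyme families only as shares of UMIs.

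**Figure D1:**
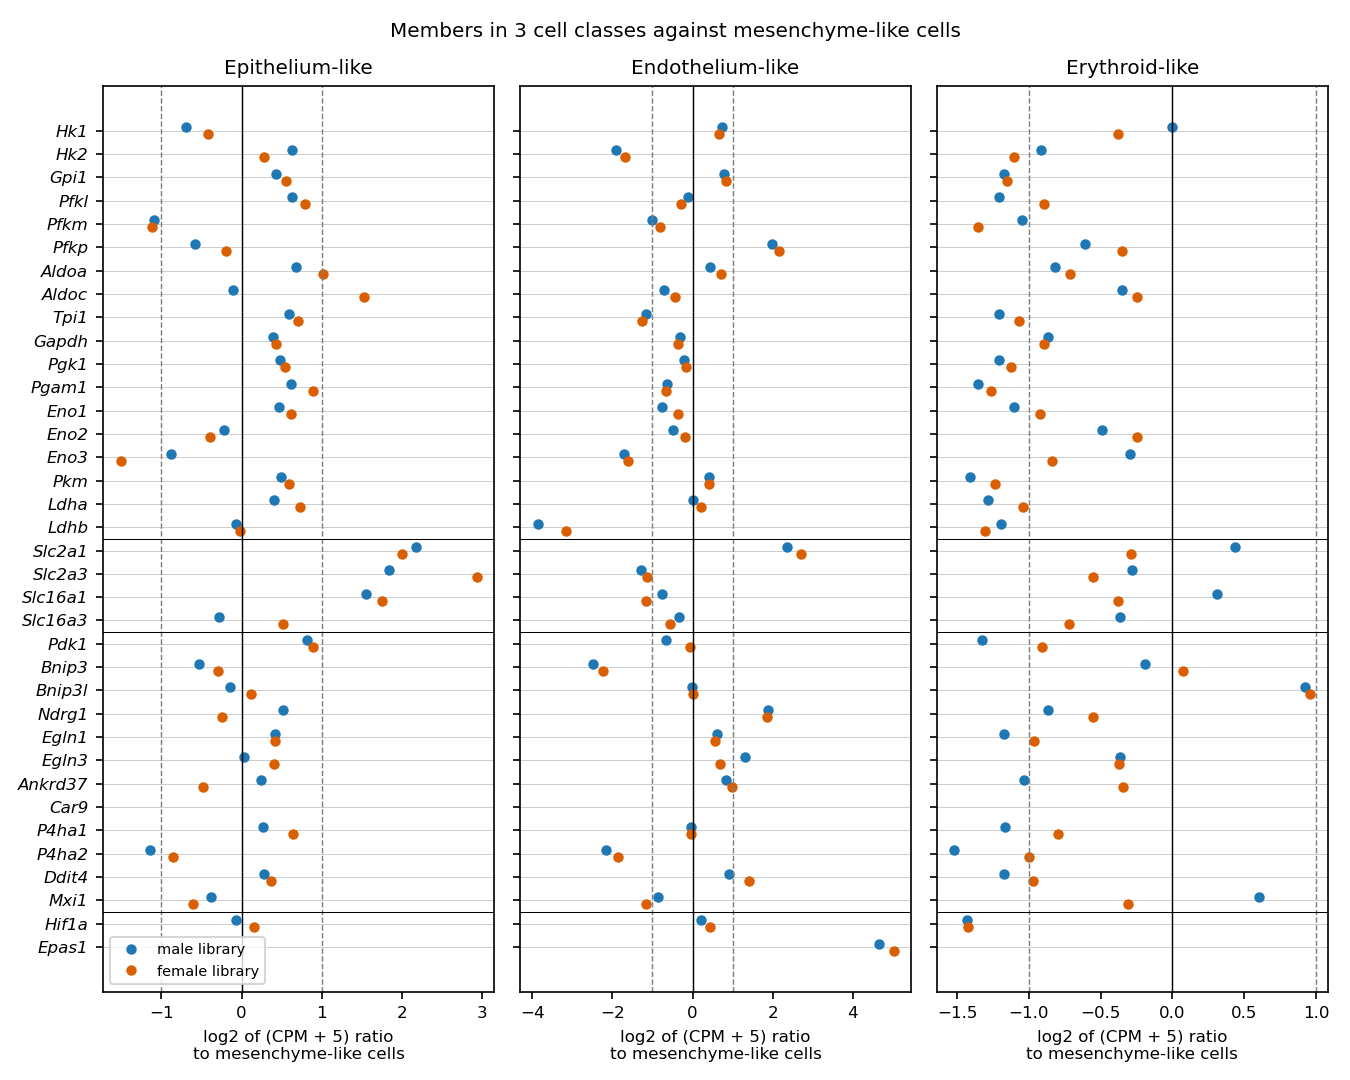
Level of each member in the epithelium-like, endothelium-like and erythroid-like class relative to mesenchyme-like cells, as a log2 ratio with a pseudocount of 5 CPM, in the male and the female library. The transporters Slc2a1, Slc2a3 and Slc16a1, but not Slc16a3, stand out above 0 in epithelium-like cells. Pfkp, Slc2a1, Ndrg1 and Epas1 do so in endothelium-like cells, and nearly all members lie below 0 in erythroid-like cells.

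Across mesenchyme-like cells the 18 glycolytic enzymes summed to 4720 CPM (male) and 4616 CPM (female), and the 12 hypoxia response members to 557 and 539 CPM. Gapdh, glyceraldehyde-3-phosphate dehydrogenase, alone gave 29.2% and 32.4% of the glycolytic UMIs, followed by pyruvate kinase Pkm with 14.2% and 14.9%. Bnip3l, a mitophagy receptor, gave 37.8% and 38.4% of the hypoxia response UMIs, and the oxygen-sensing prolyl hydroxylase Egln1 15.7% and 15.9%. Car9, a membrane carbonic anhydrase that HIF raises strongly in many tissues, had 12 and 15 UMIs in all mesenchyme-like cells, or 0.154 and 0.168 CPM. The other oxygen-sensing hydroxylase, Egln3, stood at 1.43 and 1.47 CPM. Of the HIF subunits, Hif1a stood at 113 and 123 CPM and Epas1 at 0.334 and 0.269 CPM. Car9 and Egln3, which are often used to read hypoxia, were thus close to undetected in mesenchyme.

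Epithelium-like cells had more transcripts of glucose and lactate transporters than mesenchyme-like cells in both libraries, and a moderate surplus of most glycolytic enzymes. A member was called higher or lower in a class where its level was at least 2 times higher or lower in both libraries, with at least 50 UMIs over both classes in each library. Of 34 members measured, 3 were higher (5.85% of all genes were) and 3 lower (14.7% of all genes). Slc2a1, the glucose transporter GLUT1 at chr4:119108711-119137983 (GRCm38), stood at 151 and 129 CPM in epithelium-like and at 29.5 and 28.5 CPM in mesenchyme-like cells, 5.13-fold and 4.53-fold higher. Slc2a3, the glucose transporter GLUT3, stood at 49.4 and 104 CPM against 10.3 and 9.36 CPM, 4.81-fold and 11.2-fold higher. Slc16a1, the lactate and pyruvate carrier MCT1, stood at 60.5 and 72.7 CPM against 17.3 and 18.1 CPM, 3.49-fold and 4.02-fold higher. Slc16a3, the lactate exporter MCT4, had 16.3 and 29.3 CPM against 21.01 and 19.1 CPM, on different sides in the libraries. So 3 of the 4 transporters passed the limit, and the counting intervals of those ratios lay above 0 in both libraries.

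None of the 18 glycolytic enzymes reached a 2-fold higher level in epithelium-like cells in both libraries. Above mesenchyme in both were 11, 10 with intervals above 0 in both, and below it in both were 6, 2 with intervals below 0 in both. The median log2 ratio of the 18 was 0.41 and 0.55. Over all genes measured it was -0.14 and -0.14, so most genes lay below 0 in each library. Aldoa, the main aldolase, came nearest with 1.60-fold and 2.03-fold, and Pgam1, phosphoglycerate mutase, stood 1.53-fold and 1.87-fold higher. Lower were the muscle-type phosphofructokinase Pfkm, with 6.31 and 5.87 CPM against 19.1 and 18.6, and the muscle-type enolase Eno3, with 5.26 and 1.17 CPM against 13.96 and 12.6. Of the hypoxia response members, P4ha2, a collagen prolyl hydroxylase subunit, was lower, at 12.6 and 14.1 CPM against 33.8 and 29.6. Pdk1, the kinase that holds back pyruvate dehydrogenase, lay just short of the limit at 1.90-fold and 2.04-fold higher. Hif1a stood at 108 and 137 CPM against 113 and 123. Of 25 other hypoxia-related genes measured, 6 were higher and 4 lower. Among them Fam162a, a mitochondrial HIF target, stood at 544 and 375 CPM against 144 and 131, and Loxl2, a collagen cross-linking enzyme, at 5.78 and 12.9 CPM against 41.0 and 43.9. None of the 14 genes of oxidative phosphorylation passed the limit either way. The 3 higher members passed under all 7 alternatives run, but none of the 3 lower ones did: Eno3 and P4ha2 lost their call in thinned cells, Pfkm and P4ha2 with doublets kept and Pfkm at the higher UMI minimum.

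Endothelium-like cells had another pattern, with a high Slc2a1, a switch of isozymes and a low Bnip3. Of 35 members measured, 6 were higher (10.4% of all genes) and 12 lower (23.7% of all genes). The median log2 ratio of the members, -0.21 and -0.15, lay beside -0.20 and -0.25 for all genes, so the set as a whole was not displaced. Epas1, the HIF subunit HIF-2 alpha known from vessels (chr17:86753700-86833410), stood at 130 and 166 CPM with 323 and 218 UMIs, against 26 and 24 UMIs in all mesenchyme-like cells. It passed the count limit only through the endothelium, and its high level there was bound to show once it was measured. Slc2a1 stood at 173 and 216 CPM, 5.87-fold and 7.56-fold above mesenchyme. Pfkp, the platelet-type phosphofructokinase, stood at 31.0 and 32.7 CPM against 4.05 and 3.43, 7.66-fold and 9.56-fold higher. Ndrg1, a stress-induced gene that HIF raises, at chr15:66929318-66969640, stood at 35.1 and 41.9 CPM against 5.86 and 7.84, 5.98-fold and 5.35-fold higher. Egln3 (10.9 and 5.33 CPM) and Ankrd37 (27.4 and 25.1 CPM), both HIF targets, were higher as well. Ddit4, an inhibitor of mTOR signalling, lay at the limit with 1.99-fold and 2.88-fold. Pfkp, Slc2a1 and Ndrg1 passed under all 7 alternatives run, while Egln3, Ankrd37 and Epas1 lost their call in thinned cells and Ankrd37 with doublets kept.

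Among the 12 lower members were Ldhb, the heart-type lactate dehydrogenase, with 10.9 and 21.3 CPM against 227 and 230 in mesenchyme, and Hk2, a hexokinase that HIF and insulin raise, with 2 and 3 UMIs in all endothelium-like cells. The log2 ratio of Hk2 was -4.39 (interval -7.44 to -2.53) and -3.01 (-5.29 to -1.46). Slc2a3 also had 3 and 2 UMIs there, so of the 2 glucose transporters Slc2a1 was high and Slc2a3 low in endothelium-like cells, while both were high in epithelium-like cells. Bnip3, a mitophagy receptor that HIF raises (chr7:138890836-138909519), stood at 5.24 and 6.09 CPM against 52.6 and 47.4, its close relative Bnip3l at 208 and 210 CPM against 210 and 207. The remaining lower members were Pfkm, Aldoc, Tpi1, Eno2, Eno3, Slc16a1, P4ha2 and Mxi1, where Tpi1, triosephosphate isomerase, had 177 and 148 CPM against 406 and 360. Of the lower members, Hk2, Eno2 and Mxi1 lost their call in thinned cells, and Pfkm, Aldoc and Slc2a3 with doublets kept. Of 25 other hypoxia-related genes 2 were higher and 10 lower, and Vegfa, the vessel growth factor, had 3.22 and 1.52 CPM against 35.3 and 31.1. Immediate early genes moved with this class: Junb stood at 684 and 800 CPM against 54.9 and 45.2, and 4 of 13 immediate early and heat shock genes were higher and 1 lower. Haemoglobin and other erythroid markers summed to 3574 and 18012 CPM in endothelium-like cells, against 711 and 850 CPM in mesenchyme-like cells, and mesenchyme markers to 110 and 132 CPM against 3063 and 3190. The part of either in the ratios was not tested.

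Barcodes of 10 to 100 UMIs hold mostly RNA free in the suspension. A class would reach their levels only if all its UMIs were such RNA, and the part that is free RNA was not measured. In these barcodes Slc2a1 stood at 39.2 and 25.9 CPM, Ldhb at 165 and 178 CPM, Bnip3 at 60.9 and 37.9 CPM and Ndrg1 at 11.97 and 11.97 CPM. The levels of Slc2a1 and Ndrg1 in endothelium-like cells were above these values, and those of Ldhb and Bnip3 were below them. A level below them does not tell whether a gene was transcribed in the class. Epas1 had 6.53 and 11.97 CPM in the same barcodes, more than in mesenchyme-like cells.

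Erythroid-like cells, whose UMIs were haemoglobin and other erythroid markers to 459107 and 460796 CPM, had none of 34 members higher (1.12% of all genes) and 18 lower (48.9% of all genes), a share near that of all genes. With haemoglobin and mitochondrial UMIs left out of the totals, 1 member was higher and 1 lower. The higher one was Bnip3l, which clears mitochondria from maturing red cells: it stood at 403 and 407 CPM against 210 and 207 CPM in mesenchyme even with haemoglobin in the total, 1.92-fold and 1.97-fold, the highest ratio of the members measured in this class in both libraries. The lower one was Egln3, which had no UMI in erythroid-like cells of either library but only 1.43 and 1.47 CPM in mesenchyme, near the floor. With the likely doublets kept, 10 members were lower. The share of all genes was not counted without haemoglobin or with doublets kept, so these counts have no background. Mesenchyme markers stood at 1224 and 1390 CPM in this class, and their part in the glycolytic level of 2162 and 2224 CPM was not tested. Of the related genes, Bpgm, which diverts glycolysis to 2,3-bisphosphoglycerate in red cells, stood at 606 and 590 CPM against 33.6 and 32.9, and haem oxygenase Hmox1 at 105 and 114 CPM against 8.10 and 8.57.

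Smaller classes are given as levels only. The glycolytic enzymes summed to 9074 and 7420 CPM in skeletal muscle-like cells, to 6031 and 6042 CPM in immune-like cells and to 4013 and 4555 CPM in glia-like cells. In the male smooth muscle-like cluster they summed to 7365 CPM, and the hypoxia response members there to 838 CPM. The hypoxia response members stood at 319 and 345 CPM in immune-like and at 393 and 273 CPM in skeletal muscle-like cells. Both classes thus lay above mesenchyme-like cells in glycolytic and below them in hypoxia response transcripts.

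Isozyme use differed between several of the classes. In mesenchyme-like cells Ldha, the muscle-type subunit of lactate dehydrogenase (chr7:46841475-46855627), gave 67.7% (67.3 to 68.1) and 65.5% (65.1 to 65.9) of Ldha and Ldhb UMIs. Its share was 97.8% (96.8 to 98.5) and 95.9% (94.2 to 97.3) in endothelium-like cells, 97.5% and 94.2% in immune-like and 93.4% and 94.8% in skeletal muscle-like cells. Epithelium-like cells lay nearer to mesenchyme with 74.5% and 76.3%. Glia-like cells were at the other end with 34.4% (29.3 to 39.8) and 49.5% (45.5 to 53.5). The intervals of glia-like, mesenchyme-like, epithelium-like and endothelium-like cells did not overlap within either library, and both libraries gave this order. Erythroid-like cells, with 66.6% (61.0 to 71.8) and 69.9% (65.95 to 73.7), overlapped mesenchyme-like cells in the male library. Mesenchyme markers stood at 1224 and 1390 CPM in the erythroid-like class with haemoglobin in the total, and the part of mesenchymal RNA in this share was not tested.

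Hexokinase UMIs were split 57.7% and 59.3% to Hk2 in mesenchyme-like cells, against 3.23% (0.393 to 11.2) and 9.09% (1.92 to 24.3) in endothelium-like cells, where Hk1, the housekeeping hexokinase, carried the rest. Male epithelium-like cells had 83.3% Hk2 (72.1 to 91.4), and the female class had too few hexokinase UMIs for a share. Of phosphofructokinase UMIs the liver-type Pfkl gave 79.1% and 76.7% in mesenchyme-like and 94.9% and 94.0% in epithelium-like cells. Pfkp gave 3.67% and 3.61% in mesenchyme-like and 26.4% (21.4 to 31.8) and 32.8% (24.9 to 41.6) in endothelium-like cells. Male immune-like cells, with 36 phosphofructokinase UMIs, had 22.2% Pfkp (10.1 to 39.2), which overlaps endothelium-like cells. The female immune-like class had too few for a share. Enolase was nearly all Eno1 in every class, 94.6% and 94.2% in mesenchyme-like cells, with Eno3 at 4.72% and 5.15% there. Aldolase was 98.6% and 98.8% Aldoa. A near-identical copy of Eno1, Eno1b, had 195 and 148 UMIs beside 24429 and 22000 for Eno1 over all cells. How reads shared by the pair were assigned is not stated, so the Eno1 level is uncertain by an amount that these counts do not give. Shares rest on 3' counts, where isozymes may be captured with different efficiency, and the differences between classes are the comparison they allow.

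**Figure D2:**
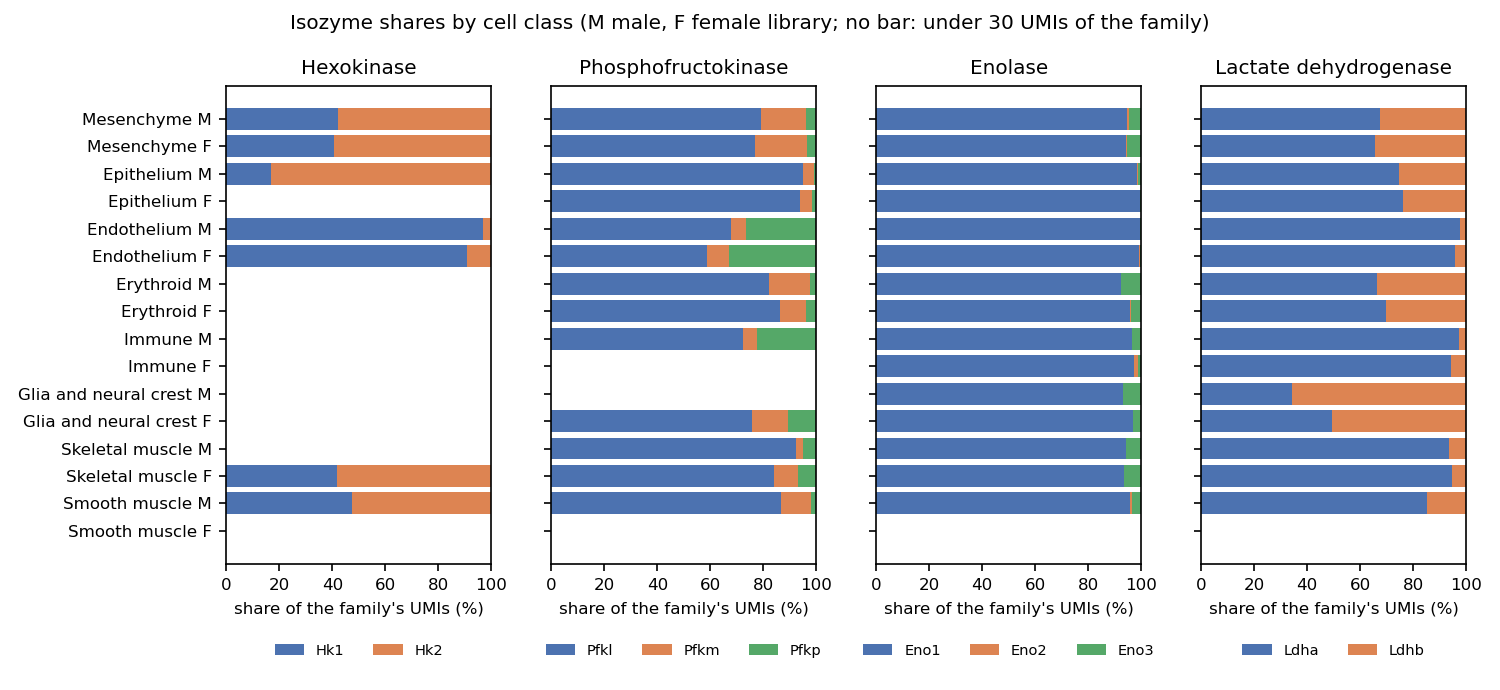
Share of each isozyme in the UMIs of its family (percent, horizontal axis) for hexokinase, phosphofructokinase, enolase and lactate dehydrogenase, as stacked bars with 1 row per cell class and library, and no bar under 30 UMIs. Endothelium-like cells have almost no Hk2 or Ldhb and a high share of Pfkp, which male immune-like cells share. Glia-like cells have the lowest Ldha share.

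Within mesenchyme the same families varied by domain. The Ldha share ran from 37.7% and 42.1% in the cluster led by Tcf21 and Aldh1a2 to 84.6% and 83.6% in a distal cluster led by Vgll2, Dlx2 and Smpd3. Those ends were the same in both libraries, and the median cluster had 66.9% and 64.9%. Both subunits contributed: Ldhb was highest in the Aldh1a2 and Tcf21 cluster, at 397 and 386 CPM, and Ldha was 240 and 281 CPM there against 967 and 886 CPM in the Vgll2 and Dlx2 cluster. Eno3 had its highest share, 13.4% and 15.6%, in a distal cluster led by Sp9 and Dio2. Its lowest share was 1.25% in the male library and 1.65% in the female library. Pfkp reached 7.97% and 7.61% in a distal, cycling cluster with Sp9 and Dlx2.

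**Figure D3:**
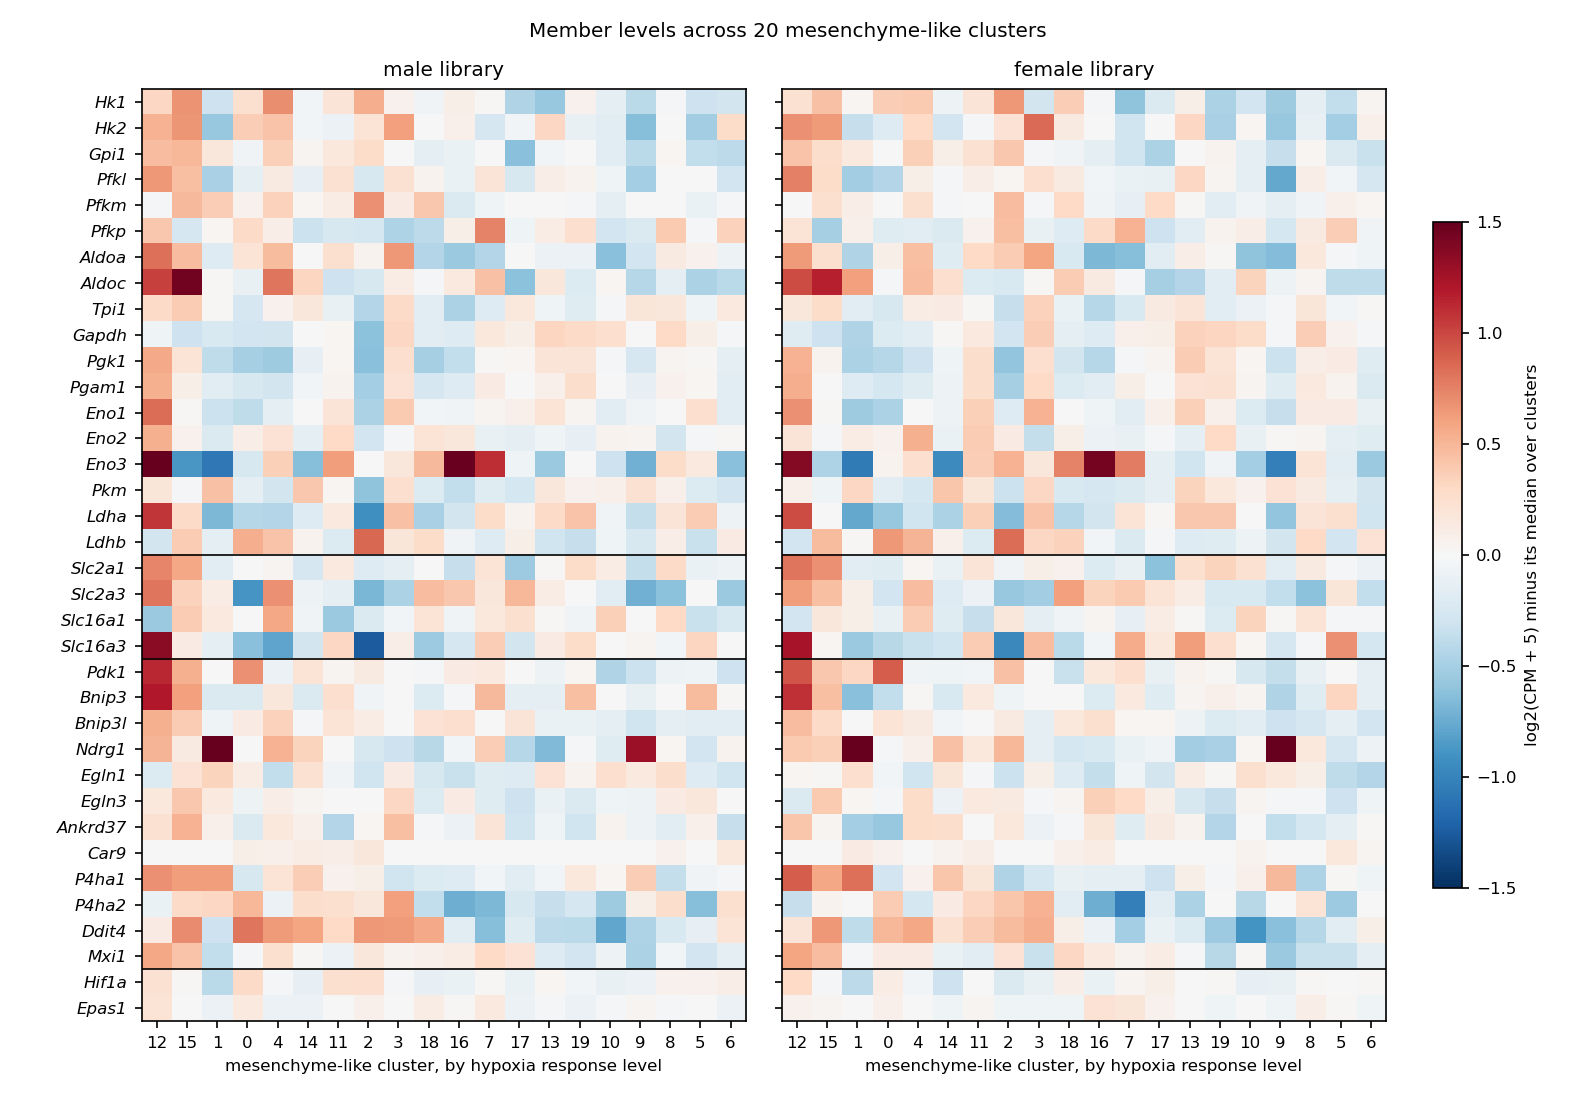
Members by mesenchyme cluster, as log2 of CPM plus 5 minus the median over the 20 clusters, with clusters ordered by their hypoxia response level and 1 panel per library. The first column, the Vgll2 and Dlx2 cluster numbered 12, is high for Ldha, Eno3, Slc16a3, Pdk1 and Bnip3 in both libraries, and Ndrg1 is high in the Tbx15 and Agtr2 cluster, numbered 1.

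A pair of mesenchyme clusters had the highest hypoxia response level in both libraries. Over the 20 clusters the summed level had a median of 533 and 537 CPM and ran from 486 and 461 CPM to 769 (736 to 803) and 774 (737 to 812) CPM. The highest was the distal Vgll2 and Dlx2 cluster, with 612 and 515 cells, also led by Ahr, Ndufa4l2 and Runx1. Next came the Scx and Sox9 cluster, which carries markers of tendon and cartilage precursors, with 1127 and 995 cells and 729 (706 to 751) and 684 (662 to 707) CPM. By domain, the Ogn and Foxf1 cells (608 and 565 CPM) and the Aldh1a2 and Tcf21 cells (561 and 574 CPM) followed, in an order that differed between the libraries. The Rprm and Pcdh10 cells (490 and 511 CPM) and the Foxd1 and Sall3 cells (535 and 504 CPM) had the lowest levels, likewise with no common order. The 4 distal clusters with Dlx2 or Runx1 had a pooled level of 552 and 540 CPM, near the mean of all mesenchyme, so the high level belonged to 1 of those 4 clusters. Which of the pair was highest depended on the cells and the resolution: a cluster led by Scx or Sox9 was highest in both libraries at Leiden resolution 0.5, at a minimum of 4854 UMIs per cell and at a mitochondrial limit of 5%.

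The Vgll2 and Dlx2 cluster was picked by its hypoxia response level, so the values of those members in it are a description, while the other members and their isozymes were not used to pick it. Against all other mesenchyme-like cells, 3 of 18 glycolytic enzymes and 1 of 4 transporters were higher (4.13% of all genes) and 0 lower (8.37% of all genes). Of the 11 hypoxia response members measured, Bnip3 and Pdk1 were higher, from which nothing is read. Bnip3 stood at 114 and 107 CPM against 50.4 and 46.0, and Pdk1 at 59.3 and 44.6 CPM against 25.4 and 21.9. Of the members outside the hypoxia response group, Ldha stood at 967 and 886 CPM against 459 and 426, 2.11-fold and 2.08-fold higher. Eno3 had 41.8 and 38.5 CPM against 13.0 and 11.9, Slc16a3 60.0 and 47.9 CPM against 19.6 and 18.3, and Aldoc 10.6 and 8.92 CPM against 3.54 and 2.67. The products of Ldha and Slc16a3 make and export lactate. Pdk1 holds back pyruvate dehydrogenase, but it belongs to the group that picked the cluster.

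Smaller differences ran the same way over most of the pathway. Of the 11 glycolytic enzymes at 20 CPM or more, 6 (Pfkl, Aldoa, Pgk1, Pgam1, Eno1 and Ldha) had their highest level over the 20 clusters in the Vgll2 and Dlx2 cluster in both libraries, as had 288 of 6031 genes (4.78%). This was not particular to glycolysis, since 5 of 10 immediate early and heat shock genes at that level (50%) did so too. Slc2a1, the only transporter at that level, also had its highest level there, with 50.5 and 50.3 CPM. Of 8 hypoxia response members at that level, Pdk1, Bnip3, Bnip3l, P4ha1 and Mxi1 did so, which again is a description. Gapdh did not follow, with 1320 and 1294 CPM against 1382 and 1502, nor did Ldhb, with 177 and 174 CPM against 229 and 232. None of the 14 genes of oxidative phosphorylation was highest there, and 5 were lowest there in both libraries (8.17% of all genes were). Their sum, 4737 and 4576 CPM, was the lowest of the 20 clusters, and so was that of 8 genes of pyruvate import and pyruvate dehydrogenase, its inhibitory kinases included, 416 and 410 CPM. Of 12 other hypoxia-related genes at 20 CPM or more, 1, Vegfa, had its highest level there in both libraries (8.33%, beside 4.78% of all genes), and the sum of that list peaked in other clusters. Of 25 such genes measured, 2 were higher and 0 lower. Ndufa4l2, a HIF target that dampens complex I, was higher, at 77.9 and 37.6 CPM against 1.76 and 0.585.

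Other lists moved with that cluster. Of 10 cell cycle genes 7 were lower and 0 higher, with a sum of 336 and 367 CPM. Of 13 immediate early and heat shock genes 4 were higher and 0 lower, where Junb stood at 165 and 167 CPM against 51.0 and 42.2 and Egr1 at 249 and 257 CPM against 105 and 126. Markers of other classes were also at other levels there than in the rest of the mesenchyme. The 10 epithelium markers summed to 47.9 and 36.2 CPM against 25.7 and 19.8, with 2 and 1 of them at 0, and the 8 endothelium markers to 17.1 and 16.4 CPM against 11.98 and 9.60, with 2 and 1 at 0. The 8 erythroid markers summed to 845 and 1032 CPM against 705 and 847, with 1 and 2 at 0, and the 5 cartilage markers to 101 and 101 CPM against 64.1 and 70.03, with 2 and 2 at 0. The 8 mesenchyme markers were lower, at 2105 and 2035 CPM against 3067 and 3199, with 1 and 0 at 0. Their part in the members' levels was not tested. The Scx and Sox9 cluster shared the low cell cycle level, with 7 of 10 genes lower and 413 and 494 CPM, but none of its immediate early genes passed the limit, and its 5 cartilage markers summed to 550 and 554 CPM. There Aldoc was the only member outside the hypoxia response group that was higher (2.53% of all genes), and 0 were lower (6.12% of all genes). Egln3 also passed the limit, but it belongs to the group that picked the cluster and its level is near the floor, so nothing is read from it. Aldoc stood at 15.9 and 10.9 CPM against 2.84 and 2.31, and Egln3 at 3.22 and 3.37 CPM against 1.29 and 1.35. As a description, since those members picked the cluster, 10 of 11 hypoxia response members measured lay above the other mesenchyme in both libraries, such as Ddit4 at 1.57-fold and 1.67-fold and P4ha1 at 1.54-fold and 1.43-fold. The summed glycolytic level was not raised in this way, with 4998 and 4529 CPM beside a median of 4790 and 4555 CPM over clusters. Of the 18 single enzymes, 11 lay above the other mesenchyme in both libraries, 9 with intervals above 0 in both. Below it in both were 4, 2 with intervals below 0 in both, and the median log2 ratio was 0.31 and 0.15. The high hypoxia response level in the Scx and Sox9 cluster thus came with a summed glycolytic level near the median. That in the Vgll2 and Dlx2 cluster came with a sum at or near the top.

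Single hypoxia response members had peaks of their own. Ndrg1 was highest in the Tbx15 and Agtr2 cluster, with 39.2 and 50.7 CPM, followed by the Sim1 and Irx1 cluster of the same domain with 17.2 and 24.6 CPM, against a median of 4.13 and 3.84 CPM. Bnip3 was at its lowest in that same Tbx15 and Agtr2 cluster, with 39.2 and 28.8 CPM. P4ha2 was highest in a cluster led by Col8a1 and Foxd1, with 54.0 and 46.7 CPM, and low in the distal clusters with Sp9, down to 18.1 and 12.6 CPM. Ddit4 was highest in the cluster led by Nefm and Lbx2 in the male library (61.5 CPM) and in the Scx and Sox9 cluster in the female library (58.2 CPM), and these did not differ beyond counting error within a library. Pdk1 was second to the Vgll2 and Dlx2 cluster in the Nefm and Lbx2 cluster, with 42.2 and 43.3 CPM. Hif1a ran from 82.9 and 95.4 CPM in the Tbx15 and Agtr2 cluster to 137 CPM in the Nefm and Lbx2 cluster (male) and 157 CPM in the Vgll2 and Dlx2 cluster (female), a log2 range of 0.69 and 0.69. Egln1 ran from 66.6 and 64.1 to 111 and 107 CPM. The members of the response did not rise and fall as 1 block: Bnip3, Pdk1, Mxi1, Bnip3l and P4ha1 shared their highest cluster, while Ndrg1, P4ha2 and Ddit4 each had another.

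Across the 20 mesenchyme clusters the relation of hypoxia response and glycolysis depended on how the lists were summarised. On log2 of the summed CPM, Pearson's r was 0.26 and 0.01 and Spearman's rho -0.0015 and -0.23, as a description over clusters that share a library. With each gene weighted alike, as the mean of log2 of CPM plus 1, r was 0.54 and 0.40. Without the Vgll2 and Dlx2 and the Scx and Sox9 cluster, the farthest from the median hypoxia response level, r was -0.24 and -0.37. The relation differed from gene to gene. Gpi1, glucose-6-phosphate isomerase, followed the hypoxia response level with r of 0.78 and 0.70, Aldoc with 0.72 and 0.72, Hk1 with 0.68 and 0.60 and Aldoa with 0.71 and 0.42. Gapdh went the other way, with r of -0.46 and -0.62, and Ldha had 0.22 and 0.10. As Gapdh gave the largest share of the sum, leaving it out moved r to 0.55 and 0.34. Among the 11 glycolytic enzymes at 20 CPM or more, 1 (9.09%) had r above 0.5 in both libraries, as had 369 of 6031 genes (6.12%).

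**Figure D4:**
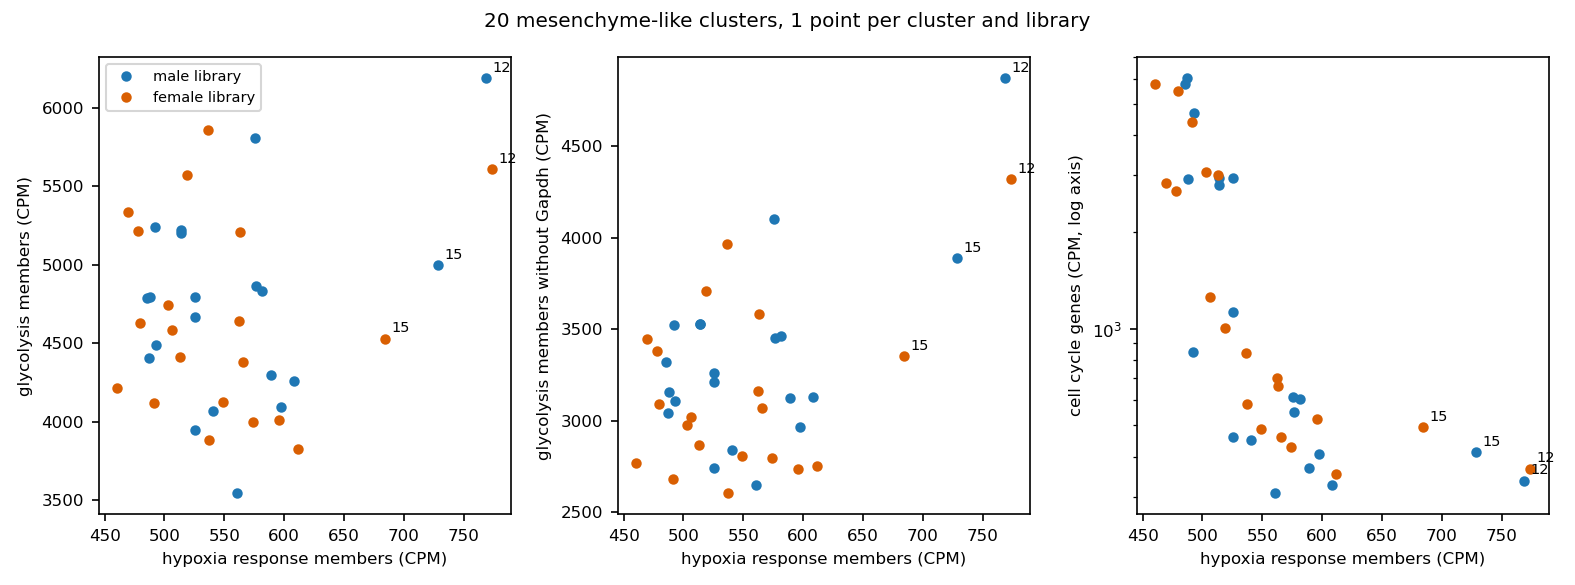
Summed level of the hypoxia response members (horizontal axis, CPM) in the 20 mesenchyme clusters against the glycolytic enzymes, the same without Gapdh, and cell cycle genes on a log axis (vertical axes, CPM), 1 point per cluster and library. The Vgll2 and Dlx2 cluster (12) and the Scx and Sox9 cluster (15) lie to the right, and cell cycle levels fall to the right. In the other clusters the glycolytic sum with Gapdh shows no rise with the hypoxia response. For the sum without Gapdh no correlation was computed over those clusters alone.

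The cell cycle was more closely related to the hypoxia response level than glycolysis was, with r of -0.71 and -0.80 and rho of -0.85 and -0.91 over the same clusters. In the 13 clusters under 1500 CPM of cell cycle genes, hypoxia response and glycolysis had r of 0.43 and 0.09. The oxidative phosphorylation genes had r of -0.36 and -0.44, the transporters 0.51 and 0.44 and the mitochondrial share of UMIs 0.38 and 0.46 with the hypoxia response level. Seen from the other side, Slc16a3 followed the glycolytic sum with r of 0.83 and 0.74, Bnip3 with 0.56 and 0.55 and Slc2a1 with 0.53 and 0.54, while Ndrg1 had -0.08 and -0.41. Outside the lists, the genes whose level across clusters was most like the hypoxia response level were S100a11 (r of 0.83 and 0.86), Atp6v0b (0.83 and 0.84), 6330403K07Rik (0.82 and 0.87), Yipf3, Atp6v0e, Smim14, Os9 and Chfr, over 20 clusters in each library.

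Between single mesenchyme-like cells the relation was weak but had the same sign in both libraries. With each cell thinned to 2000 UMIs, a cell held a mean of 1.13 and 1.10 hypoxia response UMIs and 9.29 and 9.15 glycolytic UMIs. Pearson's r between them was 0.098 and 0.064, and 0.087 and 0.064 after centring on the cluster mean. At such counts sampling alone keeps r low, and a weak r is no finding of its own. Genes with at least 1000 thinned UMIs numbered 4140 and 4497. Among them Ldha had the highest r with the hypoxia response UMIs in both libraries, at 0.095 and 0.073. Of 11 glycolytic enzymes 8 and 6 lay above the 99th percentile of all these genes, which was 0.033 and 0.030. The genes were not matched to the enzymes on level, and sampling lowers r more where UMIs are few. The part of level in this order was not tested.

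Grouped by hypoxia response UMIs, mesenchyme-like cells with 0, 1, 2 and 3 or more had glycolytic levels of 4446, 4594, 4823 and 5112 CPM in the male library. The female library had 4458, 4554, 4656 and 4896 CPM. Ldha rose over the same bins from 411 to 589 and from 392 to 532 CPM. In both libraries every step was upward, and the first and last bins held 33.47% and 10.9% of male and 34.9% and 10.6% of female cells. Oxidative phosphorylation genes stood at 5638 CPM in the first and 5375 CPM in the last male bin and at 5580 and 5368 CPM in the female bins. Cell cycle genes stood at 1717 and 1165 CPM in the first and last male bin and at 1942 and 1341 CPM in the female bins, and their part in the glycolytic difference was not tested.

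Between the libraries, the members of mesenchyme-like cells differed little. Of 34 members with at least 100 UMIs, 23 had a male over female log2 ratio above 0, as had 5799 of 13084 genes. The median of the members was 0.10 beside -0.02 for all genes, and 0.04 with the clusters weighted alike. By the limit of 0.25 on the log2 scale, 5 were higher in the male library (7.94% of all genes) and 1 in the female library (5.79% of all genes). The 5 were Eno1 with 0.28 (0.26 to 0.31), higher in 19 of 20 clusters, Pfkl with 0.26 (0.21 to 0.31), higher in 18 of 20, and Aldoc, Eno2 and Ankrd37 with 0.42, 0.37 and 0.35. With the clusters weighted alike Pfkl had 0.21 and lost its call, as it did with cells thinned to 2000 UMIs and at a mitochondrial limit of 5%. Eno1 and Ankrd37 passed the limit under all 7 alternatives run. Gapdh lay the other way, with -0.12 (-0.13 to -0.11) and 2 of 20 clusters above 0, and so did Hif1a, with -0.12 (-0.16 to -0.08) and 2 of 20. Ndrg1 had -0.42 (-0.59 to -0.25), and -0.17 with the clusters weighted alike. The Tbx15 and Agtr2 cluster, where Ndrg1 was highest, held 394 male and 799 female cells. With 1 pool per sex, sex and pool cannot be told apart.

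**Figure D5:**
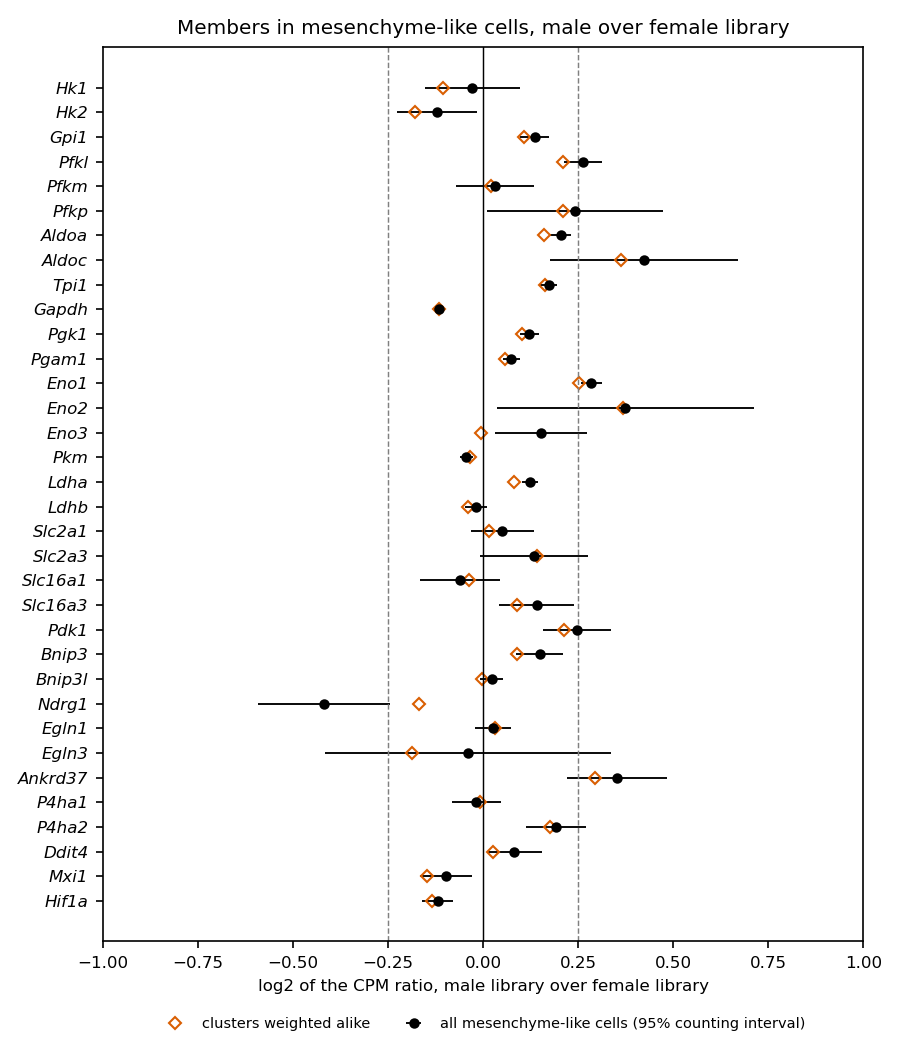
Male over female ratio of each member in mesenchyme-like cells on a log2 scale, with exact 95% intervals for counting error. Eno1 and Pfkl lie above 0 and Gapdh and Hif1a below it with narrow intervals, Ndrg1 stands at -0.42, diamonds give the ratio with clusters weighted alike, and dashed lines mark 0.25 and -0.25.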

How the data were processed

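Single-cell counts were compared between cell classes, mesenchyme clusters and 1 male and 1 female library. The deposited matrices hold raw UMI counts, made with Cell Ranger 3.1 on mm10 per the submitters' processing notes. No annotation version is given in the sources used here. The matrices list 31053 genes and 6794880 barcodes per library, so cells had not been called. Of 18549 and 20070 barcodes with 2000 UMIs, 373 and 470 were removed on genes and 922 and 889 on mitochondrial UMIs. Scrublet in scanpy 1.11.5 marked 0 cells, so the 2382 and 2801 highest doublet scores were removed (0.8% per 1000 cells). Clustering used 1958 variable genes without the members, the related lists, haemoglobin, mitochondrial and sex-linked genes, with 30 principal components, 15 neighbours and Leiden resolution 1 (igraph 0.11.9, seed 0). Classes were named from 89 markers of 13 types. Levels were summed per class and library; ratios have exact conditional, levels exact Poisson and shares Clopper-Pearson intervals at 95% (scipy 1.17.1, numpy 2.4.6, pandas 2.3.3, Python 3.11.15), and figures used matplotlib 3.10.9. The mesenchyme-like class held 77777163 and 89335270 UMIs, other classes far fewer, so their intervals are wider. The comparison script was tested on simulated data. All 36 members could be named; of related lists, up to 4 genes per comparison with the largest ratio; of other genes, the 8 most alike. The members, lists and limits were chosen with earlier results of these data known. Promoters came from RefSeq GRCm38.p6 and gene positions from GENCODE M21. Of the members, 15 overlap another counted gene, Pfkm and Hif1a on the same strand (Gm26513 and Gm49321); counting was not stated to use strand. Alternatives changed cell limits, doublets, depth, totals, resolution and weights.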

Additional observations from a re-analysis of the deposited data

Results flagged for a closer look

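The summed glycolytic level differed between the libraries in opposite directions in 2 mesenchyme clusters. In the Tbx15 and Agtr2 cluster the male over female log2 ratio was 0.17 (0.13 to 0.20), and in the Aldh1a2 and Tcf21 cluster it was -0.17 (-0.21 to -0.13). Over the 20 clusters the counting interval lay above 0 in 8 and below 0 in 5. The hypoxia response ratio was -0.05 and -0.03 in those clusters, with intervals that include 0. With 1 library per sex the difference between the clusters was not tested.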

How the results depend on the processing

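Of 146 recomputed values, 99 moved by less than their limit, 44 moved by more, and 3, all male cluster correlations, moved by more with a change of sign. Counts past the 2-fold limit stayed within 1.5 times under all 7 alternatives run for epithelium-like cells (3 higher, 2 to 3 lower) and endothelium-like cells (4 to 7 higher, 9 to 12 lower), but not always with the same members, as given beside each class. In erythroid-like cells, 1 member was higher and 1 lower without haemoglobin and mitochondrial UMIs in the totals. At a mitochondrial limit of 5% 1 was higher, and with doublets kept 10 were lower. The share of all genes was not counted under the alternatives. The cluster correlation of hypoxia response with glycolysis changed sign over all 27 clusters of every class (male -0.47, female -0.61), without the Vgll2 and Scx clusters (-0.24 and -0.37) and at resolution 0.5 (-0.44 and -0.49); the female value, 0.01 at first, is counted as moved there. It was also below 0, at -0.03 and -0.16, at resolution 2 and at a minimum of 4854 UMIs. It moved to 0.54 and 0.40 as a mean of log2 levels, to 0.55 and 0.34 without Gapdh, and in the male library to 0.022 at a minimum of 4854 UMIs and to 0.0060 at 5% mitochondrial UMIs. The cell correlation moved to 0.155 and 0.0964 at 4000 UMIs, to 0.122 and 0.0914 without Gapdh, to 0.122 (male) without Bnip3l and to 0.120 (female) at 5%. The highest over lowest hypoxia response cluster, log2 0.66 and 0.75, became 0.57 and 0.55 at resolution 0.5 (highest cluster led by Sox9), 0.93 and 0.89 at resolution 2, 0.46 and 0.35 at the higher UMI minimum (led by Scx and Sox9) and 0.55 and 0.65 with doublets kept. The Vgll2 cluster was thus highest at resolutions 1 and 2 and with doublets kept, and a cluster led by Scx or Sox9 at resolution 0.5, at the higher UMI minimum and at 5%. Ldha shares in mesenchyme-like cells became 69.1% and 66.5% at the higher UMI minimum and 71.4% and 71.7% at 5%; in endothelium-like cells 95.5% and 92.7% at 5% and 94.2% and 91.6% with doublets kept. Hk2 in mesenchyme-like cells became 60.7% and 62.4% at 5%, and Eno1 95.1% and 95.1% at the higher minimum and 96.2% and 96.7% at 5%. Male-higher members numbered 9 at 5%, and female-higher members 0 there and with clusters weighted alike. The cause of these moves was not tested beyond their construction.

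At 5% mitochondrial UMIs 1213 and 1101 cells were left, too few epithelium-like and endothelium-like cells for their counts. The settings without the Vgll2 and Scx clusters, by cell cycle level and without Gapdh or Bnip3l were chosen after seeing the data. No paired analysis was possible because each sex has 1 library. Depth limits the small classes: Hk2 had 2 and 3 UMIs in endothelium-like cells, and Car9 had 12 and 15 in all mesenchyme-like cells. Pools hide the spread between embryos, the wait on ice and the warm digestion were common to both libraries, and 3' counts tell neither enzyme activity nor oxygen supply.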

Other observations

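A cluster of 20 male and 9 female cells, led by Cma1, Cpa3 and Mcpt2 and left unnamed, had a glycolytic level of 9002 and 11493 CPM, next to 9074 and 7420 CPM in skeletal muscle-like cells, with 272 and 256 CPM of hypoxia response members. Its Ldha share was 97.9% and 99.5%, and Pfkp gave 31.4% and 25.8% of its phosphofructokinase UMIs. So few cells give levels of these cells only.

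Ldha had 5 ACGTG cores before its first annotated start, where Bnip3 had 2 ACGTG and 3 GCGTG cores, and Hif1a had 3 before its own. Aldoa had 0 before its first start and 1 before each of 2 others. These are counts of letters in the RefSeq windows, and no binding was measured.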
